A study of Homo sapiens with 6 samples.

Results

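The plasminogen activation system turns the circulating zymogen plasminogen into plasmin, a protease of broad specificity that dissolves fibrin, cleaves matrix glycoproteins and activates pro-metalloproteinases. Its urokinase arm consists of the activator uPA, encoded by PLAU, the receptor uPAR, encoded by PLAUR, which holds uPA at the cell surface, and inhibitors of the serpin family. Serpins are a large fold family in which most members trap a protease by letting it cut an exposed loop, while some have lost this activity and act as chaperones or signalling proteins. In colorectal cancer the urokinase arm is known for its place at the invasion front, where tumor and stromal cells share its components.

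The genes were chosen by symbol, as those named PLAU, PLAUR, PLAT or PLG or starting with SERPIN. Of the 770 genes in the table, 6 chosen in this way are described, namely PLAU, PLAUR, SERPINA1, SERPING1, SERPINF1 and SERPINH1. PLAT and PLG were not analysed here, so that the activators are represented by PLAU alone and the receptor by PLAUR alone. All 6 symbols matched an entry of the RefSeq gene table.

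The samples were 3 biological replicates of HCT116 WT, a human colorectal carcinoma cell line, and 3 of HCT116 p21-/-, an isogenic derivative without functional CDKN1A, the gene of the cell cycle inhibitor p21. Both lines were untreated and were harvested before full confluence, and 100 ng of total RNA per sample was profiled with the PanCancer Progression Panel of NanoString, which counts fluorescent barcodes bound to each transcript without amplification. The labels name RPMI as the medium of both lines, whereas the methods name DMEM with supplements for the p21-/- cells, so that medium and genotype cannot be told apart if the methods apply. The methods also name separate sources, a cell collection for WT and a gift from another laboratory for p21-/- cells. Source and passage history therefore cannot be told apart from genotype either. The labels speak of p21-/- clones and do not name a clone for each sample. The comparison of the lines asked how the loss of p21 is accompanied by a change in progression-related transcripts.

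The deposited gene values are counts that the authors normalized, with low values replaced by a floor in each sample of between 25.7 and 34.9 normalized counts. Between 867421 and 1335466 barcode counts per sample were recovered over the genes above the floor. WT replicate 1 had the fewest and also the most genes at the floor, 298. In it 1 barcode count stood for 1.51 normalized counts, against 0.885 to 1.17 in the other samples. The part of this in its values was not tested. CDKN1A itself stood at 4701 ± 834 normalized counts (SD, n = 3) in WT and at 419 ± 37.0 (SD, n = 3) in p21-/- samples, 8.90% of the WT mean. All 5 measured epithelial markers (EPCAM, CDH1, KRT19, TJP3 and ESRP1) were above the floor in all 6 samples, with a summed level of 25191 to 27960 normalized counts in WT and 14583 to 15155 in p21-/- samples, and EPCAM rose (log2 fold change 0.22, smaller than the shift of the housekeeping candidates) while the other 4 fell. Of the other markers, 2 of 2 immune, 3 of 4 endothelial and 2 of 8 fibroblast genes did not exceed the floor in any of the 6 samples, among them PTPRC, KDR, TEK, TIE1, LUM and FAP. COL1A1, the fibroblast marker above the floor in all samples, fell from a mean of 215 to 63.8 normalized counts, and PDGFRB rose from the floor to 50.3. The spiked positive controls were lower in p21-/- samples, with a p21-/- to WT ratio of 0.658, and a panel of 31 housekeeping candidates was higher by 0.37 on the log2 scale. The part of the markers and positive controls in the results was not tested, and the 6 genes were refitted after scaling to the housekeeping candidates.

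The regions before the annotated starts of PLAU and SERPINH1, which rose, and of PLAUR, which did not pass the test, are shown for context, from the RefSeq promoter table (GRCh38.p14). The table gave windows for 4 of the 6 genes. Each window holds the 250 bases before a start, written 5′ to 3′ on the strand of the gene, and capitals mark matches on either strand to the searched letters TATANA for the TATA-like element, GGGCGG for the GC box, CCAAT for the box of that name, TGANTCA for the AP-1 site, CACGTG for the E-box, TTCNNGAA for the pair of heat shock units and CAGACA for the SMAD element. Matches can overlap, as the 2 TATA-like matches of SERPINH1 do.
PLAU, chr10:73910882-73911131, plus strand, between the 2 annotated starts of the gene: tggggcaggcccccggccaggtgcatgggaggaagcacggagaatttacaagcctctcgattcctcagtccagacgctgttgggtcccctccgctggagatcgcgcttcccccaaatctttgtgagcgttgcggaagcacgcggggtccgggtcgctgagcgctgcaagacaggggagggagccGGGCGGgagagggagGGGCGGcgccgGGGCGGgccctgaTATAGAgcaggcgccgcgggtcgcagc
SERPINH1, chr11:75562003-75562252, plus strand: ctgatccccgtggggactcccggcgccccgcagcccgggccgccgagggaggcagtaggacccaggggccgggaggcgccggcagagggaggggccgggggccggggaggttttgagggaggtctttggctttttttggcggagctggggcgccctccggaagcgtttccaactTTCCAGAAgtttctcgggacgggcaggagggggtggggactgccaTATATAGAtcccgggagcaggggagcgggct
PLAUR, chr19:43670170-43670419, minus strand: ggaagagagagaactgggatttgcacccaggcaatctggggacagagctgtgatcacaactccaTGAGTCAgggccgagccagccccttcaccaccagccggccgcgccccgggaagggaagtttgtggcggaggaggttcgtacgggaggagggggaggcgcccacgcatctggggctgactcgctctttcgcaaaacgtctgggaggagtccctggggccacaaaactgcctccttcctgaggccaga

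The PLAU window held 3 GC boxes and a TATA-like match, whose first base lay 27 bases before the start. The SERPINH1 window held a pair of heat shock units 76 bases before the start and a TATA-like match 31 bases before it, and the PLAUR window held an AP-1 match 186 bases before the start. Of all 35116 windows of this length in the table, 42.6% held the GC box, 17.7% the TATA-like letters, 6.62% the pair of heat shock units and 6.57% the AP-1 letters. PLAU and SERPINH1 each had a window before a further start, not printed, with a CCAAT match in that of PLAU and CCAAT, GC box and TATA-like matches in that of SERPINH1. One of the SERPINA1 windows held a GC box and 2 SMAD elements. These matches describe the letters and were not measured as binding sites.

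Across the 6 genes, transcript levels moved in opposite directions between the lines. The serpins among them were taken by symbol, and none is described here as an inhibitor of uPA. The activator PLAU, the collagen chaperone SERPINH1 and SERPINF1 were higher in p21-/- cells, SERPINA1 was lower, and PLAUR and SERPING1 did not pass the test. Thus 4 of 6 genes passed an adjusted p of 0.05 in limma, 3 higher and 1 lower, where 47.8% of all 770 genes passed, 21.8% higher and 26.0% lower. The split of the panel depended on the scaling, with 168 genes higher and 200 lower in the deposited values, 251 and 169 after median scaling, 214 and 155 after quantile normalization and 97 and 523 with the housekeeping candidates, where the 523 include 167 genes that held only the floor and 356 others. The 4 called genes showed no overlap between the values of the lines, as did 52.2% of the panel. None of the 167 genes at the floor throughout passed in the deposited values, and with them left out 62.0% of 603 genes passed and 3 of the 6, as SERPINF1 lost its call. The median log2 fold change was 0.39 over the 6 genes and -0.05 over the 446 genes that exceeded the floor in every sample, and the median of all 770 genes, -0.12, is the value of those at the floor throughout. Changes were taken between log2(value + 1), so that those of low genes are understated, and in bulk RNA a change in every cell and a change in the share of expressing cells cannot be told apart.

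**Figure D1:**
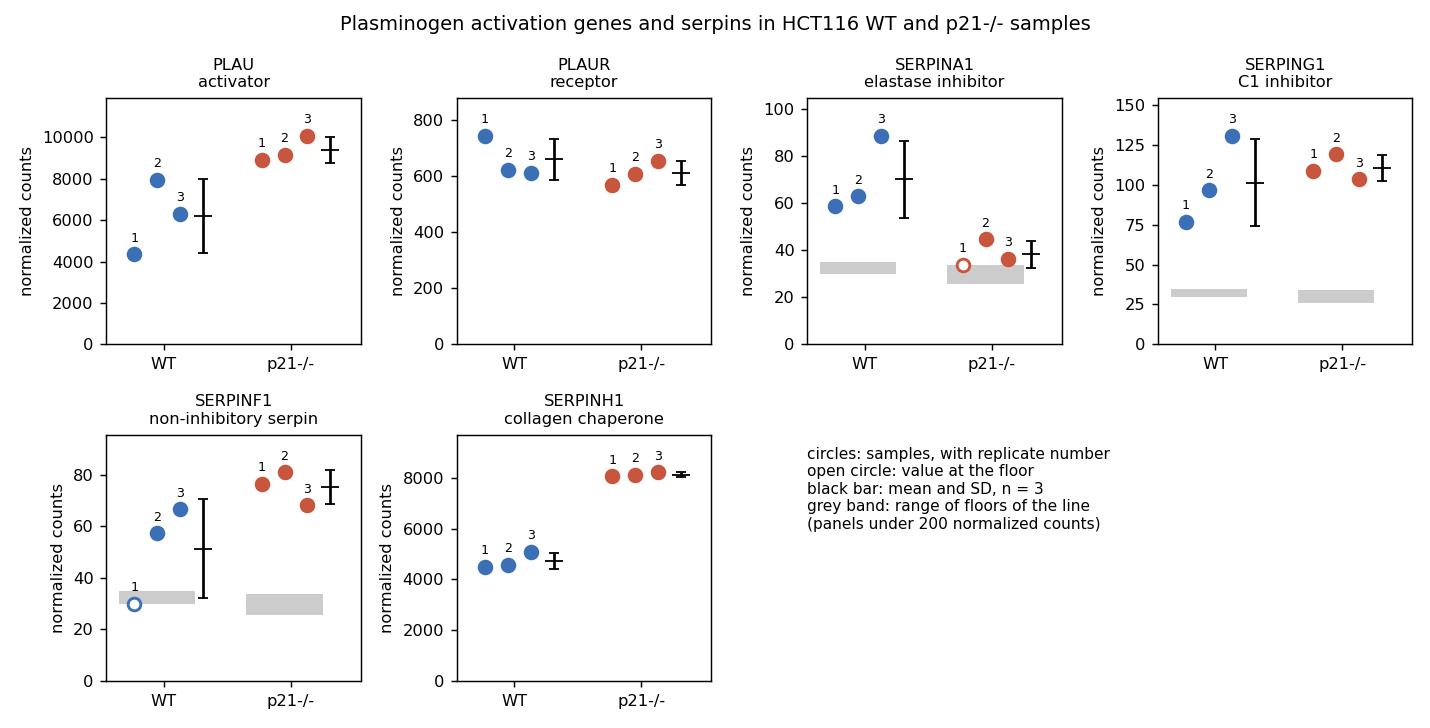
Normalized counts (linear axes from 0) of the 6 genes in each HCT116 WT (blue) and p21-/- (red) sample, with replicate numbers, the mean and SD (n = 3) in black and the range of floors in grey. PLAU and SERPINH1 lie higher in all 3 p21-/- samples, PLAUR and SERPING1 overlap, and SERPINA1 and SERPINF1 each have 1 sample at the floor.

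PLAU encodes the serine protease that cleaves plasminogen into plasmin. It had 4347, 7954 and 6315 normalized counts in WT replicates 1 to 3, compared with 8910, 9163 and 10095 in p21-/- replicates 1 to 3. All p21-/- samples lay above all WT samples, and the WT samples spread far more, with a coefficient of variation of 29.1% against 6.65%. The mean was 1.51-fold higher in p21-/- cells, and the log2 fold change was 0.64 ± 0.154 (standard error), with an adjusted p = 0.00225 in limma. These values rested on 2885 to 11409 barcode counts per sample, so that counting error was at most 1.86%, far under the spread of the WT replicates. The rise did not pass under 2 of the scalings, with a log2 fold change of 0.27 (adjusted p = 0.131) after scaling to the 31 housekeeping candidates and of 0.80 (adjusted p = 0.0585) after quantile normalization, nor in an ordinary linear model without shared variance (0.64, adjusted p = 0.141). WT replicate 1 was the lowest of the samples and also had the fewest barcode counts over all genes. Without it, the log2 fold change was 0.40 (adjusted p = 0.000195 in limma).

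PLAUR encodes the glycolipid-anchored receptor that concentrates uPA on the cell surface. It had 744, 622 and 612 normalized counts in WT replicates 1 to 3, compared with 569, 608 and 655 in p21-/- replicates 1 to 3. The groups overlapped, and the WT sample that was lowest for PLAU was highest for PLAUR. The log2 fold change was -0.11 (standard error 0.116, adjusted p = 0.495 in limma), with a 95% interval from -0.35 to 0.14. The sign depended on the scaling, since the log2 fold change was 0.11 after median scaling and 0.22 after quantile normalization, and with the housekeeping candidates it was -0.48 (adjusted p = 0.00269).

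Because PLAU and PLAUR encode a ligand and its receptor, their ratio was formed within each sample, where a scaling factor between samples cancels. PLAU over PLAUR was 5.84, 12.8 and 10.3 in WT replicates 1 to 3, compared with 15.7, 15.1 and 15.4 in p21-/- replicates 1 to 3. The lines did not overlap, and WT replicate 1 had by far the lowest ratio. The ratio rose 1.68-fold, by 0.75 on the log2 scale, and by 0.42 without WT replicate 1. The SD of its log2 value was 0.584 between WT and 0.0284 between p21-/- replicates. In the exact two-sided permutation test p was 0.1, the smallest that 3 samples against 3 can give, and 0.3 after Benjamini-Hochberg adjustment over 3 ratios. A ratio of values from different probes is not a ratio of molecules, so that its change between the lines can be read and its level cannot. The ratios of PLAU to SERPING1 and to SERPINH1 overlapped between the lines, with differences of 0.48 (exact p = 0.3, adjusted 0.45) and -0.15 (exact p = 0.7), and the latter was 0.08 without WT replicate 2. The difference for SERPING1 was 0.32 without WT replicate 3 and 0.70 without WT replicate 2.

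**Figure D2:**
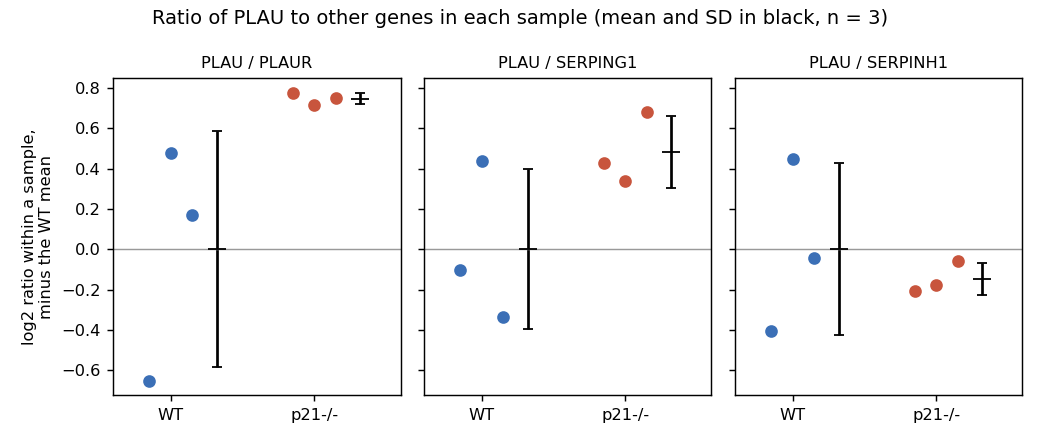
Log2 ratio of PLAU to PLAUR, SERPING1 and SERPINH1 within each sample, minus the mean of the WT samples, for WT (blue) and p21-/- (red), with mean and SD (n = 3) in black. The ratio to PLAUR rose by 0.75 with no overlap, and the ratios to SERPING1 and SERPINH1 overlap.

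SERPINH1 encodes an endoplasmic reticulum chaperone that binds procollagen and does not inhibit proteases. It had 4504, 4568 and 5096 normalized counts in WT replicates 1 to 3, compared with 8065, 8109 and 8223 in p21-/- replicates 1 to 3. It was the most reproducible of the 6 genes, with a coefficient of variation of 6.89% in WT and 1.00% in p21-/- samples. The mean was 1.72-fold higher in p21-/- cells, and the log2 fold change was 0.79 ± 0.0815 (standard error), with an adjusted p = 5.34e-07 in limma. It passed the test under all 17 alternatives, with a smallest log2 fold change of 0.41 after scaling to the housekeeping candidates.

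SERPINA1 encodes alpha-1 antitrypsin, an inhibitor of neutrophil elastase. It was low in both lines, with 58.8, 62.9 and 88.9 normalized counts in WT replicates 1 to 3 in turn, and with the floor of 33.8 in p21-/- replicate 1 and 44.6 and 36.3 in p21-/- replicates 2 and 3. No value overlapped, and the WT values rested on 39 to 76 barcode counts, for which counting error is 11.5% to 16.0%. The exact 95% Poisson intervals, which cover counting error only, were 41.8 to 80.3 in the lowest WT sample and 33.0 to 59.0 in the highest p21-/- sample, and overlapped. The log2 fold change was -0.85 (standard error 0.187, adjusted p = 0.00117 in limma), a value that the floor limits in 1 of 3 p21-/- samples. The fall passed the test under all 17 alternatives.

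SERPINF1 encodes pigment epithelium-derived factor, a secreted serpin without inhibitory activity that is known to restrain angiogenesis. It stood at the floor of 29.8 in WT replicate 1, at 57.3 and 66.7 in the other WT samples, and at normalized counts of 76.6, 81.0 and 68.1 in p21-/- replicates 1 to 3. The highest WT and the lowest p21-/- sample were within their counting error of each other. The log2 fold change was 0.62 (standard error 0.240, adjusted p = 0.0443 in limma), and the call was lost under 7 of 17 alternatives, among them scaling to the housekeeping candidates (0.25, adjusted p = 0.339). Without WT replicate 1, the sample at the floor, it was 0.28 (adjusted p = 0.267 in limma), and without p21-/- replicate 1 it was 0.60 (adjusted p = 0.0722).

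SERPING1 encodes C1 inhibitor, which controls the complement and contact systems and also inhibits plasmin and tPA slowly. It had 76.9, 96.6 and 131 normalized counts in WT replicates 1 to 3, compared with 109, 119 and 104 in p21-/- replicates 1 to 3. The p21-/- samples lay within the WT range, and the log2 fold change was 0.15 (standard error 0.197, adjusted p = 0.521 in limma), with a 95% interval from -0.27 to 0.57. Its sign turned after scaling to the housekeeping candidates, where it was -0.21, and it passed only after quantile normalization, at 0.48 (adjusted p = 0.0373).

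**Figure D3:**
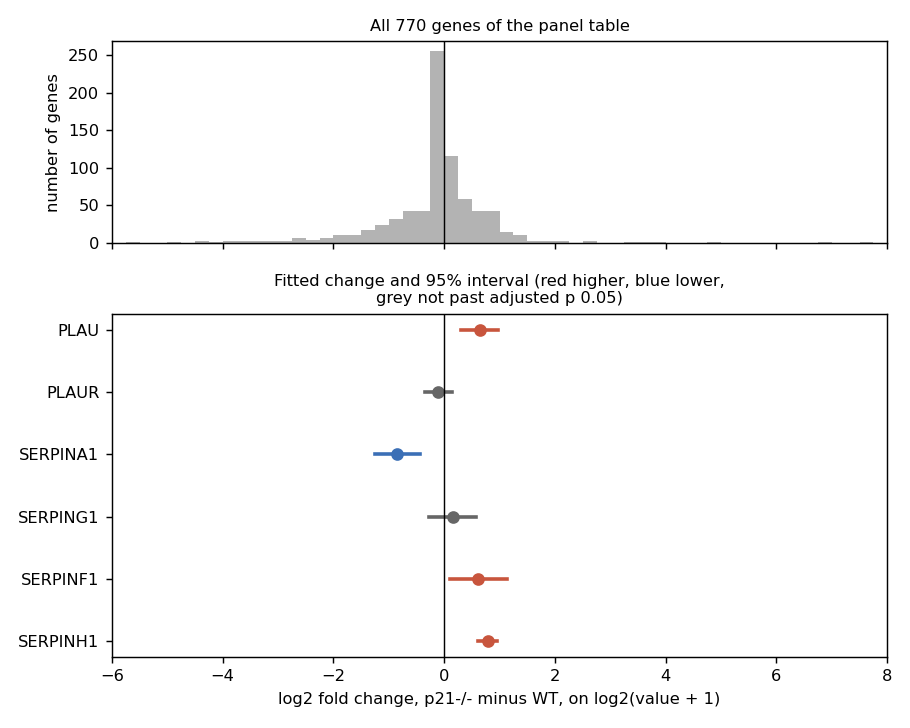
Log2 fold changes (p21-/- minus WT, on log2(value + 1)) of all 770 genes as a histogram, and of the 6 genes with their 95% interval. SERPINA1 at -0.85 and SERPINH1 at 0.79 lie farthest from 0, and the intervals of PLAUR and SERPING1 include 0.

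All 6 genes had a larger SD of log2 values between WT than between p21-/- replicates. For the 446 genes that exceeded the floor in every sample, the median SD was 0.160 in WT and 0.0634 in p21-/- samples, so that PLAU with 0.440 spread more than the typical gene in WT, and PLAUR with 0.157 did not. The scaling between samples moved the whole panel, with the median log2 fold change of all genes at -0.12 in the deposited values, 0.09 after median scaling, 0.00 after quantile normalization and -0.48 with the housekeeping candidates. Relative to the median change of the 446 genes, the log2 fold changes were 0.69 for PLAU, -0.06 for PLAUR, -0.80 for SERPINA1, 0.20 for SERPING1, 0.67 for SERPINF1 and 0.84 for SERPINH1. Under quantile normalization, the corresponding values were 0.68 for PLAU, 0.10 for PLAUR, -0.98 for SERPINA1, 0.35 for SERPING1, 0.67 for SERPINF1 and 0.75 for SERPINH1.

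**Figure D4:**
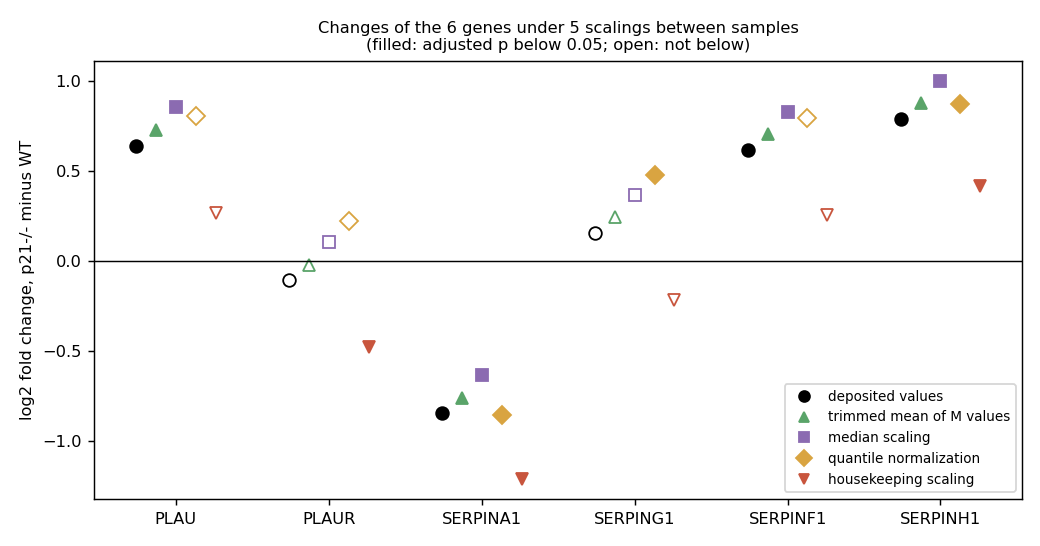
Log2 fold changes (p21-/- minus WT) of the 6 genes with the deposited values and under 4 other scalings between samples, filled where the adjusted p was below 0.05. SERPINA1 and SERPINH1 are filled under all 5, PLAU under 3, and PLAUR and SERPING1 change sign.

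Other genes connected with the system, general signalling genes among them, were taken from 4 lists. The lists were written from general knowledge with earlier results of these data known, and 37 of their 84 genes are described. Of these, 23 passed the test, 12 higher and 11 lower, which is 62.2% where the panel had 47.8%, and 6 were at the floor in all samples. Their median log2 fold change, -0.12, is likewise the value of genes at the floor throughout. The directions depended on the scaling, with 17 higher and 9 lower after median scaling and 7 higher and 21 lower with the housekeeping candidates, of which 6 held only the floor. With the floor at its upper bound, 12 were higher and 19 lower, the same 6 included.

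Among the genes that bind uPA, uPAR, plasminogen or their inhibitors at the cell surface, 7 of 22 were measured, 4 fell and 1 rose, where 26.0% of the panel fell and 21.8% rose. The integrin subunits ITGA3, ITGB1 and ITGA5, which associate with uPAR, fell with log2 fold changes of -2.99, -1.15 and -1.10, and ITGA3 dropped from 5940, 8859 and 8396 normalized counts in WT replicates 1 to 3 to 902, 1008 and 958 in p21-/- replicates 1 to 3. ITGB3, a subunit of the vitronectin receptor, did not exceed the floor in WT samples and reached 45.2 ± 6.46 normalized counts (SD, n = 3) in p21-/- samples, at least 1.09-fold higher. ENO1, a plasminogen-binding glycolytic enzyme, was among the 4 that fell (log2 fold change -0.52), and CAV1 at -0.04 and ITGAM did not pass.

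Of 15 genes whose products are cleaved or released by plasmin or uPA, 6 rose and 2 fell, which is 53.3% where the panel had 47.8%. THBS1, a thrombospondin, rose with a log2 fold change of 2.17, and TNC, encoding tenascin C, rose from the floor in all WT samples to 145 ± 3.22 normalized counts (SD, n = 3), at least 3.51-fold higher. VEGFA, an angiogenic factor, fell from 4752 ± 1120 (SD, n = 3) normalized counts in WT to 2218 ± 53.5 (SD, n = 3), a log2 fold change of -1.07 (adjusted p = 4.78e-06 in limma). LAMA5 was the other gene that fell, at -0.74. HGF, MMP1, MMP3 and VEGFC were at the floor in all 6 samples, so that no change could be measured for them.

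Of the coagulation genes, 2 of 19 were measured. F3, encoding tissue factor, the starter of the extrinsic clotting cascade, had 1576, 2067 and 2201 normalized counts in WT replicates 1 to 3, compared with 7862, 7972 and 8369 in p21-/- replicates 1 to 3. The lines were far apart, with a 4.14-fold higher mean in p21-/- cells, and the log2 fold change was 2.06 ± 0.109 (standard error), with an adjusted p = 1.54e-10 in limma. TFPI2, a Kunitz inhibitor of plasmin and of the tissue factor complex, was at the floor in all samples.

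Among 14 genes whose products are known to induce genes of the system in various cells, 4 rose and 5 fell, which is 64.3% where the panel had 47.8%. None of the 14 was at the floor throughout, and with such genes left out 62.0% of 603 panel genes passed, a similar share. FGF2, JUN and NFKB1 rose with log2 fold changes of 1.64, 0.96 and 0.54, and EPAS1 and TGFBR2 fell with -1.35 and -0.86. These are changes in the deposited values, in which the housekeeping candidates were higher by 0.37. JUN, a subunit of the AP-1 factor, had 225, 757 and 578 normalized counts in WT replicates 1 to 3, compared with 978, 817 and 902 in p21-/- replicates 1 to 3. Like PLAU, it was lowest in WT replicate 1 and had its highest WT value in replicate 2. The SD of its log2 values was 0.918 in WT and 0.130 in p21-/- samples, so that its change rests much on WT replicate 1. Of the other TGF-beta pathway genes, SMAD2 fell by 0.36 on the log2 scale, and TGFB1, TGFB2, SMAD3 and SMAD4 did not pass the test. The part of these genes in the change of PLAU was not tested.

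**Figure D5:**
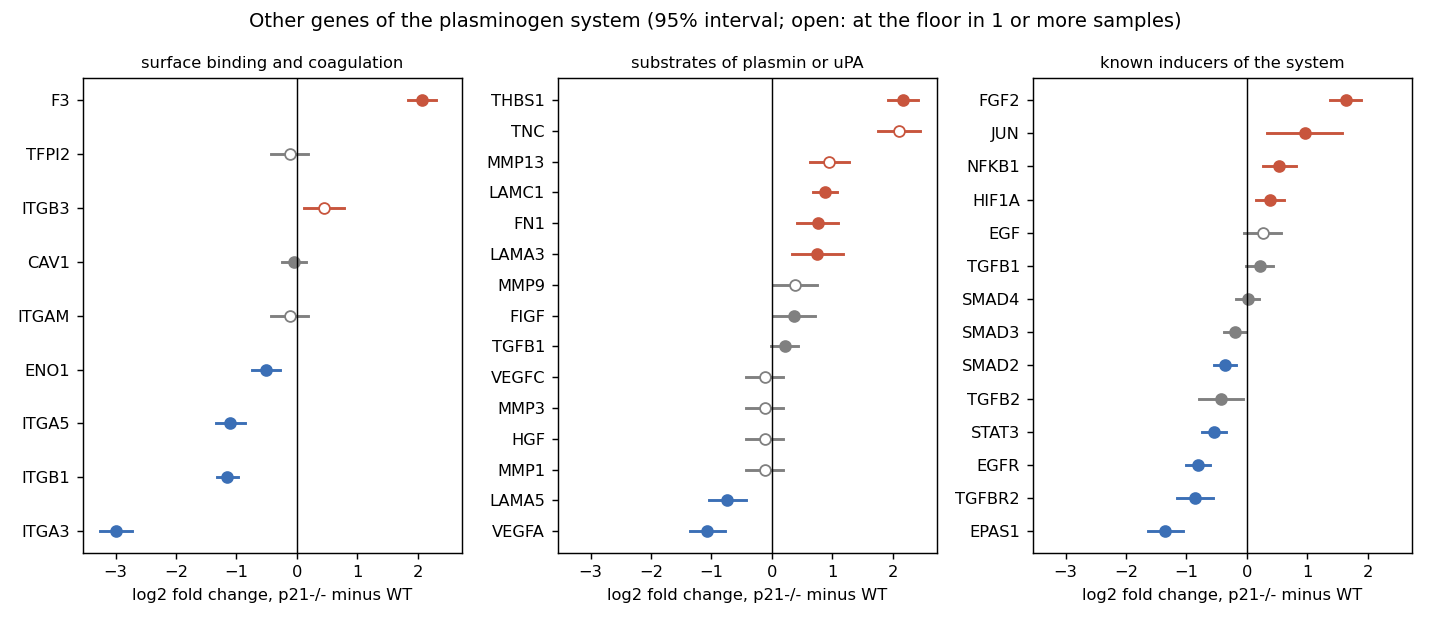
Log2 fold changes (p21-/- minus WT) with 95% intervals of 37 other genes connected with the plasminogen system, of which TGFB1, listed as substrate and as inducer, is drawn in both panels, red where higher, blue where lower and grey where the adjusted p was not below 0.05. F3, THBS1 and TNC show the largest rises and ITGA3 the largest fall, and open circles are genes at the floor in 1 or more samples.

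The genes whose profile over the 6 samples was closest to that of PLAU, by Euclidean distance of centred log2 values among 445 genes above the floor in all samples, were NR4A1 (distance 0.217), NAA15 (0.352) and NFKB1 (0.392). NR4A1, which encodes an orphan nuclear receptor, had 113, 176 and 150 normalized counts in WT replicates 1 to 3, compared with 192, 207 and 232 in p21-/- replicates 1 to 3, the same order of the 6 samples as PLAU. Close to PLAUR were CEP295 (0.116) and IL15 (0.256). These distances describe 6 samples of 2 lines.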

How the data were processed

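RNA of 3 HCT116 WT and 3 HCT116 p21-/- cultures, described as biological replicates, was counted on the NanoString panel. The deposited gene values are a signal, barcode counts that the authors normalized in nSolver 3.0, with low values replaced by a floor, which equals the negative control mean (8 rows) plus 2 SD, and control rows were deposited unscaled. Barcode counts were recovered by dividing values above the floor by the step, found per sample, that made those below 500 whole within 0.1 count, and their intervals cover counting error only. The log2(value + 1) values of 770 genes were fitted with limma 3.58.1 in R 4.3.3 (lmFit, eBayes with trend, no covariate, no filter), two-sided, with Benjamini-Hochberg adjustment over all genes and a threshold of 0.05. Ratios within samples were compared with exact permutation tests. The fit was tested on simulated data with a common SD for all genes and both lines. The unequal spread of the lines was therefore not covered by it.

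The genes and lists were chosen with earlier results of these data known, and 1 gene with a matching symbol and some other genes are not reported here. From the lists, the 3 largest rises and falls past the threshold without overlap were named where the higher line averaged 20 or more, and for PLAU and PLAUR the 3 closest profiles, and genes not reported here left some of these places empty. ENO1, CAV1, ITGAM, HGF, MMP1, MMP3, VEGFC, TFPI2, TGFB1, TGFB2, SMAD2, SMAD3 and SMAD4 were named after their values were seen. Alternatives were 2 pseudocounts, a filter, 4 scalings, other variance models, the floor at its upper bound, a replicate block and leaving out each sample.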

Additional observations from a re-analysis of the deposited data

How the results depend on the processing

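SERPINA1 and SERPINH1 kept their direction and call under all 17 alternatives, and leaving out each sample gave log2 fold changes of -0.96 to -0.67 and 0.75 to 0.84. An ordinary linear model for each gene called 2 of 6 genes, and leaving out each sample 3 to 4. PLAU lost its call with housekeeping scaling (0.27), quantile normalization (0.80) and the ordinary model (0.64, adjusted p = 0.141), and ranged from 0.40 to 0.84 without each sample. PLAUR was 0.11 after median scaling and 0.22 after quantile normalization, was called at -0.48 with housekeeping scaling, and ranged from -0.16 to -0.02. SERPINF1 lost its call with the filter (0.62, adjusted p = 0.0656), housekeeping scaling (0.25), quantile normalization (0.80), a constant prior variance (0.62, adjusted p = 0.0704), the ordinary model (0.62, adjusted p = 0.285) and without p21-/- replicate 1 (0.60) or WT replicate 1, with a range of 0.28 to 0.84. SERPING1 was -0.21 with housekeeping scaling and -0.0271 without WT replicate 1, was called at 0.48 after quantile normalization, and ranged from -0.03 to 0.35. The log2 ratio difference of PLAU to SERPINH1 was 0.0762 without WT replicate 2 and otherwise as low as -0.35. The cause of these changes was not tested.

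Over the panel, 368 genes were called, against 620 with housekeeping scaling and 560 with the floor at its upper bound, and each of these larger counts takes in all 167 genes that held only the floor, without which they are 453 and 393. With the replicate number as a block, 4 of the 6 genes and 22 of the other listed genes were called. Deviations of samples sharing a number correlated at 0.0757, -0.0544 and 0.0524, and those of the other pairs at -0.109 to 0.0822. No effect shared by a number was seen, which cannot show whether the numbers mark a common harvest or run. The block changed no call of the 6 genes. A count test was not run, because between 196 and 298 genes per sample were held only as the floor, which is no whole count. Depth limits SERPINA1, SERPINF1 and SERPING1, with 39 to 131 barcode counts where measured.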
